A study of Arabidopsis thaliana with 6 samples.

Results

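The genes described here are 9 regulators of the seed maturation programme of Arabidopsis thaliana. They were chosen by their loci from the 38064 genes of the deposited count table. They are the activators ABI3 (AT3G24650), FUS3 (AT3G26790), LEC1 (AT1G21970) and LEC2 (AT1G28300), the abscisic acid and dormancy regulators ABI4 (AT2G40220), ABI5 (AT2G36270) and DOG1 (AT5G45830), and the repressors VAL1 (AT2G30470) and VAL2 (AT4G32010). Their transcripts were compared in seedlings kept in darkness for 5 days at 22 degrees. Polyadenylated RNA was sequenced from 3 libraries of the bdh mutant, genotype bdh1-1 bdh2-1, and 3 libraries of the wild type Col-0 (WT). The mutant is mutated in a pair of BCL-DOMAIN HOMOLOG (BDH) genes, and SWI/SNF remodellers are the subject of the series. Material is described per sample as etiolated seedlings, while the text on the design speaks of hypocotyls. No source used here says how many seedlings were pooled per library or whether libraries came from separate cultures. The p-values below therefore measure only the spread between these libraries, which may be technical. In whole seedlings or organs, fewer cells that express a gene and less RNA per cell cannot be told apart.

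Seed maturation is the phase in which the embryo stores protein and oil and acquires desiccation tolerance and dormancy. ABI3, FUS3 and LEC2 encode transcription factors with a B3 domain that binds the RY element, whose core is CATGCA. LEC1 encodes a B subunit of the NF-Y complex, and together these genes are called LAFL. VAL1 and VAL2 also encode B3 domain proteins, which recognise RY elements and recruit repressive chromatin complexes to the same kind of gene. Seedlings without both VAL proteins keep embryonic traits, so the VAL genes are known for holding the seed programme off after germination. ABI5, a bZIP factor, binds elements with the core ACGTG, and DOG1 is a central factor of seed dormancy.

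Upstream sequences are given for 4 genes because their values are described below and their windows hold these elements: a repressor, the bZIP factor and a pair of seed genes. Each is the 300 bases before the annotated start in TAIR10.1, as RefSeq gives it, read 5′ to 3′ on the strand of the gene. Capitals mark CATGCA and ACGTG on either strand, and overlapping matches of 1 motif run together. The 4 windows were chr2:12985278-12985577 (minus strand) for VAL1, chr2:15207637-15207936 (minus) for ABI5, chr5:17758337-17758636 (minus) for the 12S storage protein gene CRA1, and chr4:12900130-12900429 (plus) for the oleosin gene OLEO1.
VAL1: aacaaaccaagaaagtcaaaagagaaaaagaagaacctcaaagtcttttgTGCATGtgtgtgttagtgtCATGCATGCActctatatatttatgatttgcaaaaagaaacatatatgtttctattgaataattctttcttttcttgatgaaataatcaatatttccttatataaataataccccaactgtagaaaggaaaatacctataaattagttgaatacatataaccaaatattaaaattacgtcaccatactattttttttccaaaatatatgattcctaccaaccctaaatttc
ABI5: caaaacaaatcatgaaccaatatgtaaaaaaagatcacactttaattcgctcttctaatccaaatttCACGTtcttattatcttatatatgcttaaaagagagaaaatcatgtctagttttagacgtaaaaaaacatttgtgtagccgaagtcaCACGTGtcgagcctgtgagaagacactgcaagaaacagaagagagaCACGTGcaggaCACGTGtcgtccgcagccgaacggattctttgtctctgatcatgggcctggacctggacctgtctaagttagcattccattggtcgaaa
CRA1: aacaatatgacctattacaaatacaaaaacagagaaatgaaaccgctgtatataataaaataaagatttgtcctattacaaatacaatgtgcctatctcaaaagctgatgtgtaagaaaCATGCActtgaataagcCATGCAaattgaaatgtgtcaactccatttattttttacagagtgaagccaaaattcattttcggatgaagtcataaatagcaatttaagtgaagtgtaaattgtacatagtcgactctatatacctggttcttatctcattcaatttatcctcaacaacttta
OLEO1: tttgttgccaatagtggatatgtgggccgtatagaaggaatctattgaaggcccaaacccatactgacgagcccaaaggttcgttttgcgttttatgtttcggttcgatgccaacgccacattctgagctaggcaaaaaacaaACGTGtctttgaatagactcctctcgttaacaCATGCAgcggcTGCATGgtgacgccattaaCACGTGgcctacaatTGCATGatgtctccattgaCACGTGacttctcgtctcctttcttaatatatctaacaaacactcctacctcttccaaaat
Counting overlapping matches as 1 run, the VAL1 window held 2 runs of the RY core and 0 of the ACGTG core. The ABI5 window held 4 runs of ACGTG and 0 of the RY core. CRA1 held 2 RY runs and 0 ACGTG runs, and OLEO1 held 3 of each, with no overlap between the 2 motifs. Across 27443 protein-coding genes, 10.3% of the windows held the RY core and 25.6% held ACGTG. Of the 9 regulators, FUS3 and VAL1 held the RY core and ABI5 alone held ACGTG. Of the 9 storage protein genes listed here 8 held the RY core, as did 8 of 8 oil body genes and 3 of 12 late seed genes. ACGTG stood in 6, 5 and 9 windows of those same lists. These matches describe letters in a window and say nothing of binding.

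Library totals lay between 40876788 counts in bdh replicate 2 and 44982000 in bdh replicate 1. Even numbers made up 74.8% of all count values from 1 to 20, and 45 of the 54 counts of the 9 regulators were even, zeros included. A count may therefore not be a separate molecule, and low counts are less precise than they look. The loci AT4G22320 and AT5G55210 are taken as the mutated BDH genes from knowledge outside the files, and each overlaps a gene on the opposite strand. AT4G22320 had 8, 12 and 15 counts in bdh replicates 1, 2 and 3, against 169, 143 and 148 in WT replicates 1, 2 and 3. AT5G55210 had 7, 14 and 22 counts in bdh and 693, 575 and 755 in WT. PORA, an enzyme gene that is typical of etiolated shoots, lay at 950.3 CPM on average in bdh and 553.1 CPM in WT, where CPM is the count scaled to the library total and its TMM factor. It is 1 of 4 etiolated shoot markers listed, with PORB, PRE1 and ACS8. Of these 4, 2 were higher in bdh at an edgeR adjusted p under 0.05 and 0 lower, against 12.1% of all tested genes called as higher. The log2 fold change was below 0 for 1 of the 4. WT replicates 2 and 3 stood apart from the other 4 libraries in seed storage transcripts, and WT replicate 2 in root hair transcripts, so these values stand beside the results below.

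The repressors VAL1 and VAL2 fell in bdh, by about the same amount. VAL1 is also called HSI2 and lies at chr2:12980428-12985277 (minus strand). It had 964, 1002 and 744 counts in bdh replicates 1, 2 and 3, against 1770, 1252 and 1409 in WT replicates 1, 2 and 3. VAL2, also called HSL1, lies at chr4:15479379-15485354 (plus strand). It had 732, 898 and 647 counts in bdh and 1427, 1142 and 1165 in WT. For both genes every bdh library lay below every WT library. The lowest VAL1 count in WT, in replicate 2, was closest to the bdh counts.

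VAL1 averaged 21.0 ± 3.41 CPM in bdh and 32.7 ± 5.73 CPM in WT (SD, n = 3 each). Its log2 fold change was -0.64 (SE 0.15), or 35.7% lower, and the adjusted p from edgeR (quasi-likelihood) was 0.0160. VAL2 averaged 17.7 ± 3.31 CPM in bdh and 27.5 ± 3.49 CPM in WT (SD, n = 3 each). Its log2 fold change was also -0.64 (SE 0.14), or 35.9% lower, with an edgeR adjusted p of 0.0131. They were the 2 of 5 tested regulators past an adjusted p of 0.05. Over all 20791 tested genes, 23.5% were past it, 11.3% as lower in bdh, and the groups did not overlap for 41.3%. VAL2 overlaps the non-coding RNA gene AT4G08635 on the opposite strand, which had 0 counts in all libraries. In the authors' deposited table the log2 fold changes are -0.57 for VAL1, with an adjusted p of 0.00120, and -0.58 for VAL2, with an adjusted p of 0.000781. Deposited fold changes are not the same measure as those fitted here. For CRA1 the deposited value is -0.08 with a standard error of 0.28, although the deposited adjusted p is 0.00268. Over 14 alternative settings here it was -6.70 to -3.51.

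The calls of VAL1 and VAL2 each held in 13 of 15 alternative settings, and both genes were lower in bdh in all 15. Both were lost without bdh replicate 1 (edgeR adjusted p 0.0614 for VAL1 and 0.0715 for VAL2) and without WT replicate 1 (0.0587 and 0.0531). Transcript length moved with the fold changes: over 16873 genes, which share the same libraries, longer transcripts had lower values (Spearman correlation -0.40). VAL1 and VAL2 have exonic lengths of 3402 and 3761 bases. After offsets for length in every library, the log2 fold change was -0.42 for VAL1 (edgeR adjusted p 0.0249) and -0.40 for VAL2 (0.0268), both still past the threshold.

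**Figure D1:**
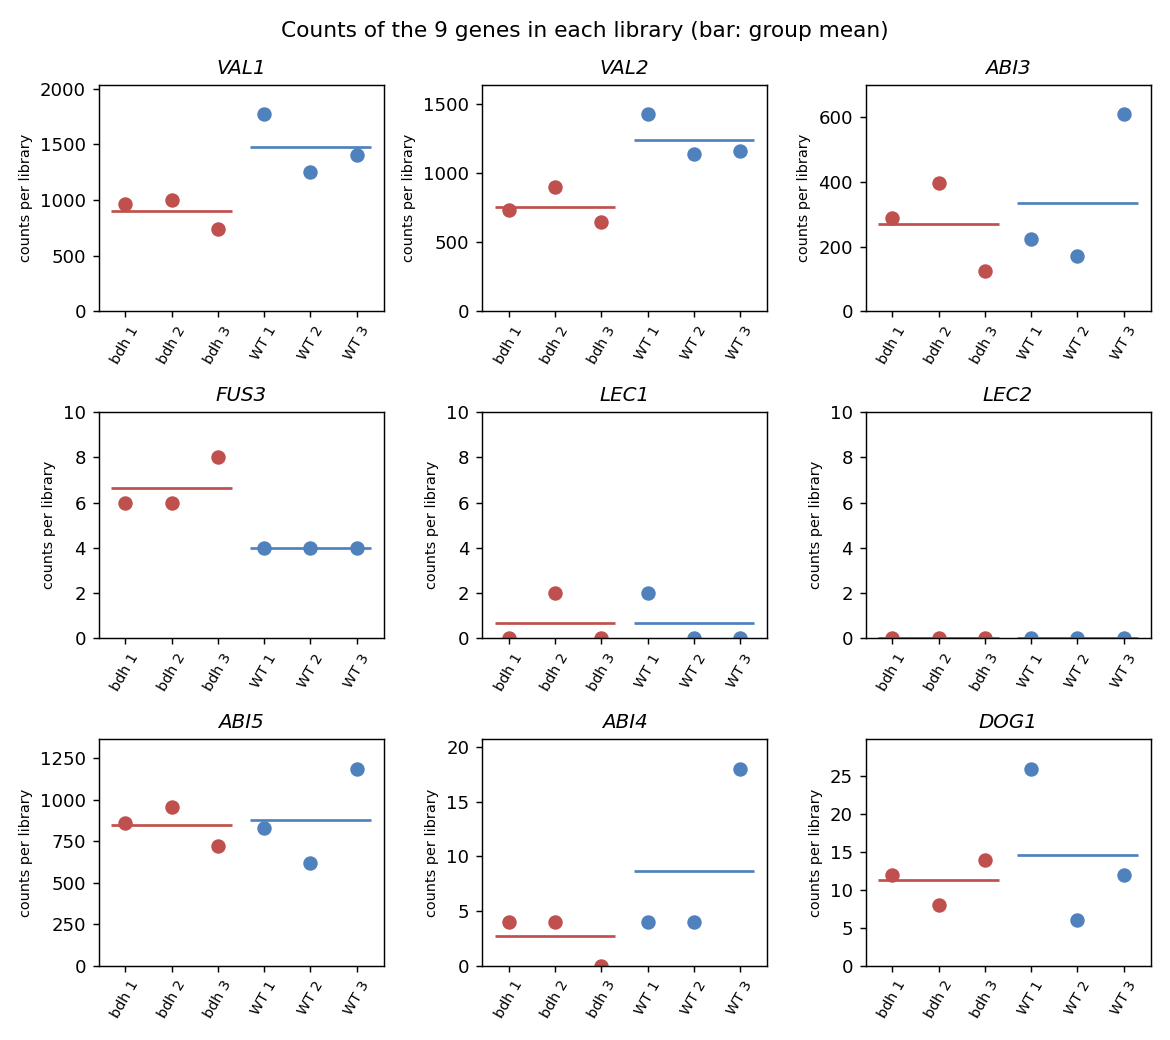
Counts of each of the 9 genes in the 3 bdh libraries (left, red) and the 3 WT libraries (right, blue), on linear axes that differ between panels; bars are group means. VAL1 and VAL2 are lower in all bdh libraries, LEC1 and LEC2 stay at 2 counts or fewer, and WT replicate 3 is the highest library for ABI3, ABI5 and ABI4.

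VAL1 and VAL2 also varied alike between libraries, with a Pearson correlation of log2 CPM of 0.970 over the 6 libraries, to which the difference between the groups contributes. Among 16915 other genes, the patterns most like that of VAL1 were those of PAH1, a phosphatidate phosphatase gene, AT3G50370 and ATERDJ2A (r = 0.999, 0.999 and 0.998 over 6 libraries). For VAL2 they were MAG2, the syntaxin gene SYP132 and AT3G50590 (r = 0.998 each). With 6 libraries and this many genes, such values are a description only.

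The third VAL gene, VAL3, was far less abundant. It had 46, 43 and 26 counts in bdh replicates 1, 2 and 3 and 70, 32 and 46 in WT replicates 1, 2 and 3, and the groups overlapped. Its log2 fold change was -0.29 (SE 0.35; edgeR adjusted p 0.567).

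The activators LEC1 and LEC2 were not detectable above the floor of 3 counts in either genotype. LEC2, at chr1:9896867-9899876, had 0 counts in all 6 libraries. A count of 0 allows up to 3 counts per library, which is 0.0684, 0.0714 and 0.0694 CPM in bdh replicates 1, 2 and 3 and 0.0664, 0.0678 and 0.0651 CPM in WT replicates 1, 2 and 3. These limits cover counting error only. LEC1, at chr1:7727577-7729649, had 2 counts in bdh replicate 2 and 2 in WT replicate 1, and 0 in the other 4 libraries. The related NF-Y gene L1L had 1, 7 and 6 counts in bdh and 4, 2 and 4 in WT.

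FUS3, at chr3:9853828-9856212, was just above the floor. It had 6, 6 and 8 counts in bdh replicates 1, 2 and 3, against 4, 4 and 4 in WT replicates 1, 2 and 3. The groups did not overlap, as for 41.3% of tested genes, but all 6 counts were even and the sums were 20 counts in bdh and 12 in WT. FUS3 was below the filter on low counts. Without that filter its log2 fold change was 0.79 with an edgeR adjusted p of 0.483, and the authors' deposited table gives an adjusted p of 0.564. No difference in FUS3 was therefore detectable at this depth.

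ABI3, at chr3:8997370-9001185, was the one LAFL gene with a clear signal, and it differed more between libraries of a genotype than between the genotypes. It had 288, 396 and 125 counts in bdh replicates 1, 2 and 3, against 224, 172 and 609 in WT replicates 1, 2 and 3. WT replicate 3 was the highest library and bdh replicate 3 the lowest, and the groups overlapped. ABI3 averaged 6.29 ± 3.27 CPM in bdh and 7.35 ± 5.10 CPM in WT (SD, n = 3 each). The log2 fold change was -0.23 (SE 0.48; edgeR adjusted p 0.753). It was 0.51 without WT replicate 3 (adjusted p 0.411) and 0.13 without bdh replicate 3 (0.864), so its direction rested on those libraries. Without bdh replicate 2 it was -0.64 (0.377), without WT replicate 2 -0.52 (0.421) and without WT replicate 1 -0.45 (0.609). The highest library was 3.26 times the lowest within bdh and 3.40 times within WT, against 1.43 within bdh and 1.25 within WT for VAL2.

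ABI5, at chr2:15204659-15207636, had 859, 954 and 724 counts in bdh replicates 1, 2 and 3, and 831, 620 and 1187 in WT replicates 1, 2 and 3. It was at 19.7 ± 2.97 CPM in bdh and 19.4 ± 5.93 CPM in WT (SD, n = 3 each), and the bdh libraries lay within the WT range. The log2 fold change was 0.02 (SE 0.20; edgeR adjusted p 0.948), and between -0.16 and 0.28 over the 15 alternatives. The lowest of these came without WT replicate 2 and the highest without WT replicate 3.

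ABI4, an AP2-type factor gene of sugar and abscisic acid responses at chr2:16796247-16797585, had 4, 4 and 0 counts in bdh and 4, 4 and 18 in WT. Only WT replicate 3 stood clearly above the floor. ABI4 was below the filter, and without it the edgeR adjusted p was 0.296.

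DOG1, at chr5:18589418-18591506, had 12, 8 and 14 counts in bdh and 26, 6 and 12 in WT, with the bdh libraries inside the WT range. The log2 fold change was -0.30 (SE 0.54; edgeR adjusted p 0.713), and 0.40 without WT replicate 1 (0.665). Leaving out WT replicate 2 gave -0.65 (0.367), WT replicate 3 -0.44 (0.666), bdh replicate 2 -0.12 (0.906) and bdh replicate 3 -0.47 (0.655). Of 4 further loci in the DOG1-like list, AT4G18660, AT4G18680 and AT4G18690 never exceeded 2 counts in a library. AT4G18650 had 6, 13 and 12 counts in bdh and 4, 2 and 22 in WT (log2 fold change 0.23, edgeR adjusted p 0.849). Its log2 fold change was 1.80 without WT replicate 3 and -0.23 without WT replicate 2, and 0 of 13 alternatives were past the threshold.

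Levels of different genes were ordered per kilobase of exon. In bdh, ABI5 was highest at 9.33 ± 1.41 CPM per kilobase, followed by VAL1 at 6.17 ± 1.00, VAL2 at 4.70 ± 0.88 and ABI3 at 2.02 ± 1.05 (SD, n = 3). In WT, VAL1 stood at 9.60 ± 1.68 CPM per kilobase, ABI5 at 9.19 ± 2.81, VAL2 at 7.32 ± 0.93 and ABI3 at 2.36 ± 1.64 (SD, n = 3). The means of VAL1, ABI5 and VAL2 in WT differed from each other by less than the sum of their SDs, and so did those of VAL1 and VAL2 in bdh. DOG1 followed at 0.151 CPM per kilobase in bdh and 0.187 in WT, and the remaining regulators were at or below 0.0966 in bdh and 0.142 in WT.

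Further regulators were examined next: 7 other activators and repressors of the seed programme, and 10 genes of repressive chromatin complexes. Of 6 tested seed regulators, 2 fell and 0 rose, where 11.3% of all tested genes were called as lower, with a median log2 fold change of -0.32, against 0.00 over all tested genes. ASIL2, a trihelix repressor of seed genes, had 24.3, 25.6 and 22.8 CPM in bdh replicates 1, 2 and 3, against 46.8, 34.2 and 39.0 CPM in WT replicates 1, 2 and 3. Its log2 fold change was -0.72 (SE 0.12; edgeR adjusted p 0.00392), past the threshold in all 15 alternatives. Its relative ASIL1 fell by 0.29 on the log2 scale (adjusted p 0.0337), but that call held in 8 of 15 alternatives and was lost whenever any 1 library was left out (adjusted p 0.0528 to 0.111) and with the replicate block (0.124).

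Of the 10 chromatin genes, 2 fell and 1 rose, a share near the 23.5% called over all tested genes, with a median log2 fold change of -0.24. The count called was 0 with the replicate block and without bdh replicate 1, WT replicate 1 or WT replicate 3. PKL, a CHD3-type remodeller that represses embryonic genes, had 36.3, 49.8 and 33.9 CPM in bdh and between 49.4 and 72.1 CPM in WT. Its log2 fold change was -0.60 (SE 0.17; edgeR adjusted p 0.0302), and bdh replicate 2 overlapped WT replicate 2. The call was lost without bdh replicate 1 or 3 or WT replicate 1 or 3 (adjusted p 0.0752 to 0.130) with the length trend taken out (-0.30, 0.0858) and with the replicate block (0.0825). RING1B, a Polycomb repressive complex 1 subunit gene, rose by 0.62 on the log2 scale (SE 0.17; edgeR adjusted p 0.0260). It lost the call without bdh replicate 1 or 2 or any WT library (adjusted p 0.0537 to 0.0592) and with the replicate block (0.0858), and it overlaps a gene on the opposite strand. AT3G23060, a RING/U-box gene also called BMI1C, had 2, 4 and 6 counts in bdh and 26, 12 and 11 in WT. Its log2 fold change was -1.93 (edgeR adjusted p 0.0387). Only its WT libraries reached the cutoff of the filter on low counts (0.223 CPM), so it was tested because it was high in WT. Its call therefore adds no weight to the 2 that fell. Where every library needed at least 10 counts it was not tested, and of 9 tested chromatin genes 1 was lower and 1 higher. The call of AT3G23060 was lost in 7 of 13 alternatives. These were every fit without 1 library other than WT replicate 2 (edgeR adjusted p 0.0510 to 0.159), the replicate block (0.100) and the fit without the filter on low counts. The other 7, among them HDA6, HDA19, SAP18 and RING1A, did not pass the test with all libraries. The count of lower calls was 4 without WT replicate 2 and 3 without bdh replicate 2. Over all tested genes, 2716 of 21088 and 2453 of 21070 were called as lower in those fits. Of the 7 chromatin genes that did not pass with all libraries, 3 are named after their values were seen. LHP1, a reader of Polycomb marks, was past the threshold as lower in those same fits (edgeR adjusted p 0.0489 and 0.0399). DRIP2 (AT2G30580, also called BMI1A) was so without WT replicate 2 (0.0193) and with DESeq2 (0.0436). DRIP1 (AT1G06770, also called BMI1B) was so without bdh replicate 2 (0.0234). In all 15 alternatives DRIP2 (-0.62 to -0.35), DRIP1 (-0.81 to -0.37) and LHP1 (-0.45 to -0.24) were below 0 on the log2 scale. HDA19 and HDA6 were also below 0 in all 15, RING1A in 12 and SAP18 in 1.

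**Figure D2:**
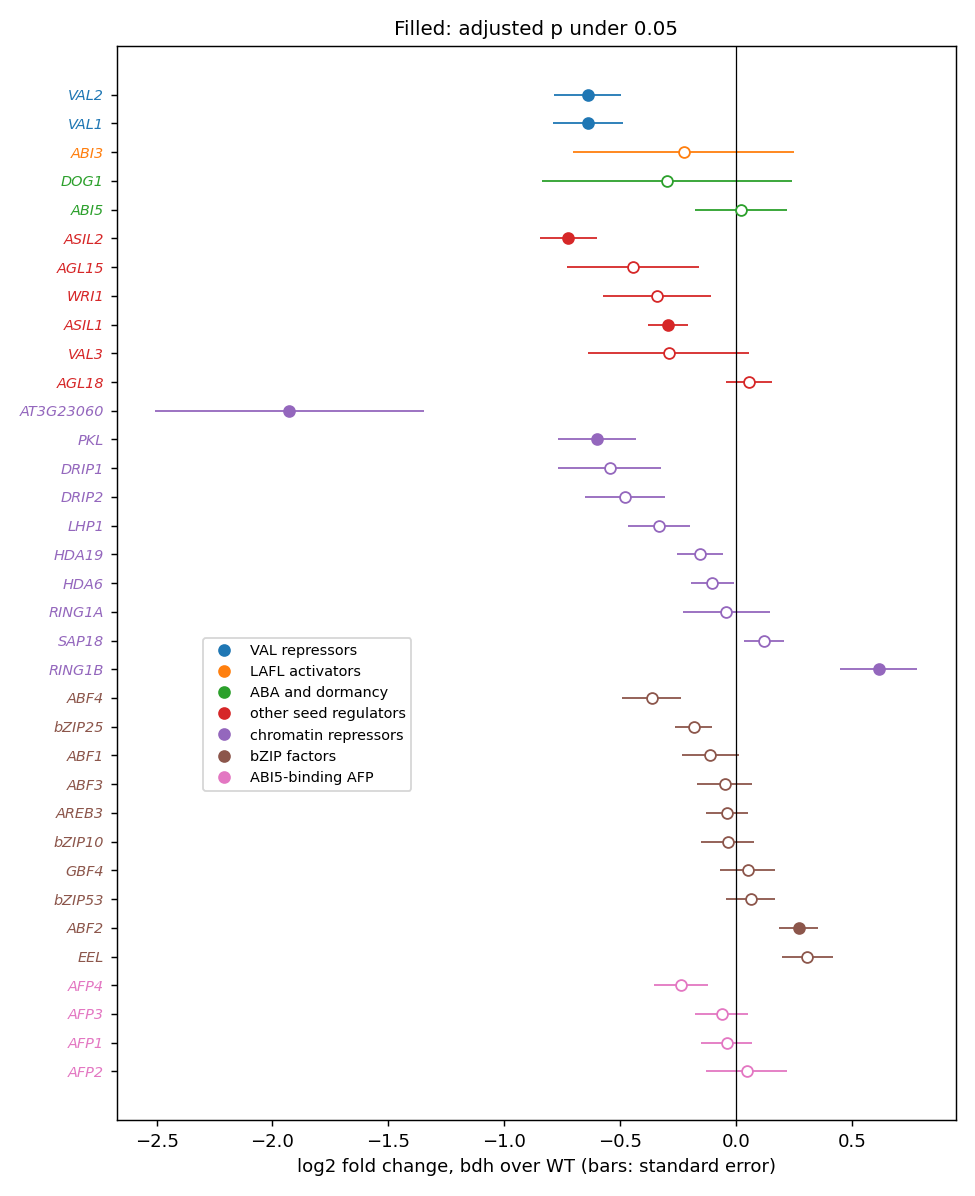
Log2 fold change of bdh over WT (x axis, standard error bars) for the tested regulators and their partners, one gene per row, coloured by list; filled points have an adjusted p under 0.05. VAL1 and VAL2 lie at -0.64, ABI5 at 0.02, and ABI3 and DOG1 have the wide errors of genes that vary between libraries.

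Among the bZIP and AFP genes, which encode relatives and binding partners of ABI5, 1 of 14 tested passed the test, against 23.5% of all tested genes. Of 10 tested bZIP genes 1 rose, and the list's median was -0.04 (log2), with members on both sides of 0. The riser was ABF2, an abscisic acid response factor gene, at 44.6, 46.4 and 49.8 CPM in bdh against 38.2, 39.3 and 39.2 CPM in WT (log2 fold change 0.27, SE 0.08; edgeR adjusted p 0.0451). The call was lost whenever any 1 library was left out (adjusted p 0.0558 to 0.131), with the replicate block (0.147) and without the filter on low counts (0.0626). ABF4, a related gene named after its values were seen, stood at -0.36 on the log2 scale (SE 0.13; edgeR adjusted p 0.0620). It was below 0 in all 15 alternatives (-0.49 to -0.25) and past the threshold in 3, with DESeq2 (0.0382), without bdh replicate 2 (0.0213) and without WT replicate 2 (0.0420). The authors' deposited table, whose fold changes are a different measure, gives -0.32 for ABF4, with an adjusted p of 0.0409. ABF4 overlaps 2 genes on the opposite strand, with 760 exonic bases of overlap beside an exonic length of 2609. bZIP67 (DPBF2 in the annotation), a seed-specific bZIP gene, had 0 counts in all 6 libraries. None of the 4 AFP genes, whose proteins bind ABI5, passed the test, with log2 fold changes between -0.24 and 0.05 in edgeR. AFP4, the lowest of them, was below 0 in all 15 alternatives and past the threshold in 1, without bdh replicate 2 (-0.37, adjusted p 0.0317).

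Targets of these regulators were described by list and by library, since the libraries of one genotype differed. The summed level of 12 LEA and late seed genes was 234.0, 243.4 and 218.1 CPM in bdh replicates 1, 2 and 3, against 149.9, 161.5 and 404.7 CPM in WT replicates 1, 2 and 3. The bdh libraries were close together, above WT replicates 1 and 2 and below WT replicate 3. Of 11 tested members 1 rose and 0 fell, against 12.1% of all tested genes called as higher and 11.3% as lower. Their median log2 fold change was -0.62, but 0.31 without WT replicate 3, where 3 rose, as did 1449 of all 21047 genes tested in that fit. Without WT replicate 1 the calls were 0 higher and 1 lower (EM6, -1.92, edgeR adjusted p 0.0403), and without WT replicate 2 they were 1 higher and 1 lower (ECP63, -2.50, adjusted p 0.0445). The 3 that rose without WT replicate 3 were SOM (0.85), PER1 (1.36, adjusted p 0.00810) and M17 (1.52, adjusted p 0.0237). PER1 and M17, named after their values were seen, encode a seed peroxiredoxin and a late embryogenesis protein and were not past the threshold with all libraries.

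SOM, a CCCH zinc finger gene that holds back light-dependent germination, rose. It stood at 114.5, 99.6 and 121.5 CPM in bdh and 63.3, 61.0 and 89.5 CPM in WT, with no overlap (log2 fold change 0.65, SE 0.15; edgeR adjusted p 0.0137). Its call was lost without bdh replicate 1 (0.0568) and without WT replicate 1 (0.0560).

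A pattern noticed after the values were seen was a likeness between ABI3 and late seed genes from library to library. ABI3 was 2.99 times as high in WT replicate 3 as in the mean of WT replicates 1 and 2, and ABI5 1.59 times. RAB18, a dehydrin gene, was 3.04 times as high there, LEA18 3.24 times and EM6 5.88 times. Of the 11 tested late seed genes 8 had their highest level in WT replicate 3, or 72.7%, against 13.1% of all tested genes. So did 2 of 4 storage protein genes, 2 of 5 oil body genes, 1 of 4 AFP genes and 1 of 9 vegetative response genes. ABI3 and ABI5 were also highest in bdh replicate 2 and lowest in bdh replicate 3 among the bdh libraries. That order was shared by 6 of the 11, or 54.5%, against 25.9% of all tested genes, and 5 of 11 showed both features, against 4.17%. The bdh order was shown by 4 of 5 oil body genes, 3 of 4 AFP genes, 5 of 9 vegetative response genes and 1 of 4 storage protein genes. Both features were shown by 2, 1, 1 and 0 genes of those lists. Genes share their libraries, so these shares are a description.

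Storage protein transcripts were high in WT replicate 2 as well as in WT replicate 3. The 9 storage protein genes summed to 1.18, 2.33 and 1.62 CPM in bdh replicates 1, 2 and 3, against 0.619, 60.7 and 89.9 CPM in WT replicates 1, 2 and 3. WT replicate 1 lay below every bdh library, and WT replicates 2 and 3 lay far above. Of 4 tested members 3 had an adjusted p under 0.05 as lower (CRA1, PAP85 and CRU3), against 11.3% of all tested genes, and the groups overlapped for all of them. PAP85 and CRA1 lost that call without WT replicate 3 (adjusted p 0.0589 and 0.0579) or bdh replicate 1 (0.0850 and 0.0863). CRU3 lost it without WT replicate 2 (0.0660), bdh replicate 1 (0.113) or bdh replicate 3 (0.0673). ABI3, at 3.89 CPM in WT replicate 2 and 13.2 CPM in WT replicate 3, was low in one and high in the other of the libraries rich in storage transcripts.

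Oil body genes gave 59.8, 66.6 and 51.9 CPM in bdh and 35.2, 71.4 and 76.5 CPM in WT when summed over 8 genes. Of 5 tested 1 rose and 0 fell, against 12.1% of all tested genes called as higher and 11.3% as lower. Of the 5, 4 had log2 fold changes below 0, and the median was -2.22, but -0.05 without WT replicate 2 and -1.14 without WT replicate 3 or with the replicate block. OLEO1 (-3.35, edgeR adjusted p 0.0623) and OLEO5 (-3.33, 0.0530) had their high levels in single WT libraries, at 10.7 CPM in WT replicate 2 and 29.1 CPM in WT replicate 3, and are named after their values were seen. Both were past the threshold as lower with length offsets (adjusted p 0.0452 and 0.0383), without the filter on low counts (0.0291 and 0.0225) and without WT replicate 1 (0.0180 and 0.0172), and OLEO5 also without WT replicate 2 (0.0262), where OLEO1 was at -0.69 (0.514). OLEO3 rose to 53.2, 59.1 and 46.4 CPM in bdh, against 33.6, 44.5 and 37.1 CPM in WT (log2 fold change 0.46; edgeR adjusted p 0.0275). It lost the call with the length trend taken out (0.27, adjusted p 0.155). The call also went without bdh replicate 1 or 2 or WT replicate 1 or 3 (0.0644 to 0.0983). The 5 root hair genes summed to 3.17, 2.85 and 4.03 CPM in bdh and 1.06, 8.38 and 1.30 CPM in WT. With all libraries 3 had log2 fold changes below 0 and the smallest edgeR adjusted p was 0.274, but without WT replicate 2 the calls were 3 higher and 0 lower, and 0 lay below 0. In that fit 2842 of all 21088 tested genes were called as higher and 2716 as lower. EPR1, an extensin gene of the endosperm in germinating seeds, had 44, 66 and 34 counts in bdh and 48, 59 and 192 in WT. Of the other endosperm markers, ALE1 had 0 counts in all libraries and GLP6 had 4 counts in WT replicate 2 and 0 elsewhere. The part that seed or root tissue in single libraries had in these values was not tested.

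**Figure D3:**
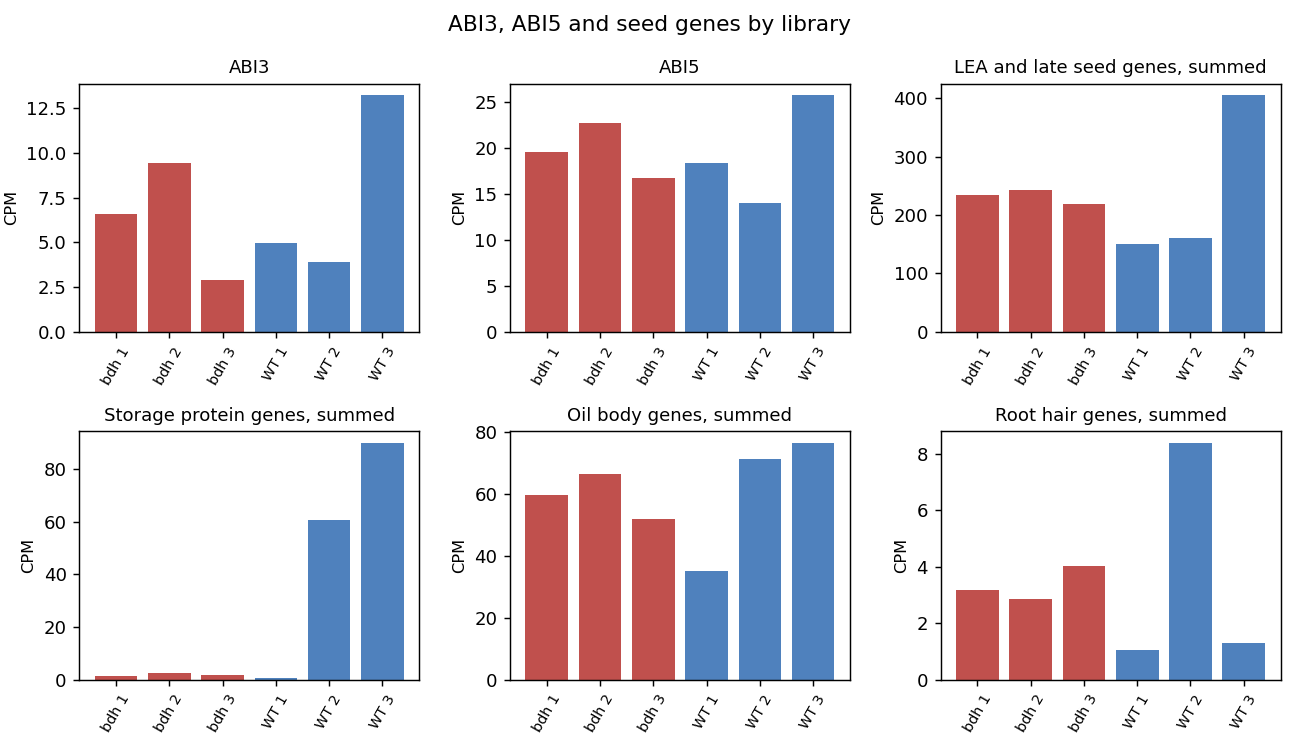
CPM of ABI3 and ABI5 and summed CPM of 4 gene lists in each library (bars; bdh red, left; WT blue, right). ABI3, ABI5 and the late seed genes are highest in WT replicate 3, the storage protein genes are high in WT replicates 2 and 3, and the root hair genes are highest in WT replicate 2 at 8.38 CPM.

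Genes of the vegetative abscisic acid response were examined beside ABI3 and ABI5, which were not past the threshold. Of 9 tested response genes 7 rose and 0 fell, against 12.1% of all tested genes called as higher, and the median log2 fold change was 0.95. The count was 4 without bdh replicate 1, 5 without WT replicate 1 or 2, 5 with length offsets and 5 with the replicate block, with 0 lower in each. RD22, a dehydration response gene, had 299.96, 300.4 and 388.3 CPM in bdh replicates 1, 2 and 3, against 161.6, 135.7 and 111.2 CPM in WT replicates 1, 2 and 3. Its log2 fold change was 1.28 (SE 0.15; edgeR adjusted p 0.000818), past the threshold in all 15 alternatives. The cold- and dehydration-induced genes KIN2 (1.06, adjusted p 0.00152) and LTI30 (0.96, adjusted p 0.00167) also kept the call in all 15. KIN1 rose by 0.98 on the log2 scale (edgeR adjusted p 0.0273) but lost the call in 6 of 15. These were the fits without bdh replicate 1 or 3 or WT replicate 1 or 2 (0.0504 to 0.0984), with the replicate block (0.0540) and with length offsets. RD29B, a classic target of ABI5-type factors that is named after its values were seen, did not pass the test (0.17, adjusted p 0.657), and it was highest in WT replicate 3.

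Of 8 tested genes that set the level of abscisic acid 4 rose and 0 fell, against 12.1% of all tested genes called as higher, with a median log2 fold change of 0.56. The risers were 3 genes of synthesis and 1 of breakdown. The count was 1 without bdh replicate 1, 2 without WT replicate 1 and 2 without WT replicate 3. ABA1 and AAO3, of synthesis, and CYP707A2 and CYP707A3, of breakdown, did not pass the test in any of the 15 alternatives. The catabolic gene CYP707A1 had 50.4, 50.3 and 42.9 CPM in bdh and 27.3, 24.8 and 33.4 CPM in WT (log2 fold change 0.75, SE 0.12; edgeR adjusted p 0.00367), past the threshold in all 15 alternatives. The biosynthetic gene NCED9 stood at 2.10, 1.86 and 2.13 CPM in bdh and 0.796, 0.994 and 1.21 CPM in WT (1.01, adjusted p 0.0137). ABA2 (0.69, adjusted p 0.0154) and NCED3 (0.44, adjusted p 0.0295), which also act in synthesis, rose as well. ABA2 overlaps 2 genes on the opposite strand, with 470 exonic bases of overlap beside an exonic length of 1184. The strand setting of the counting is not given. NCED9 lost the call without bdh replicate 1 (0.0581) or WT replicate 1 (0.0519). ABA2 lost it without bdh replicate 1 (0.0770), WT replicate 1 (0.0537) or WT replicate 3 (0.0536), and with the replicate block (0.0556). NCED3 lost it without bdh replicate 1 (0.133), WT replicate 2 (0.0538) or WT replicate 3 (0.112).

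**Figure D4:**
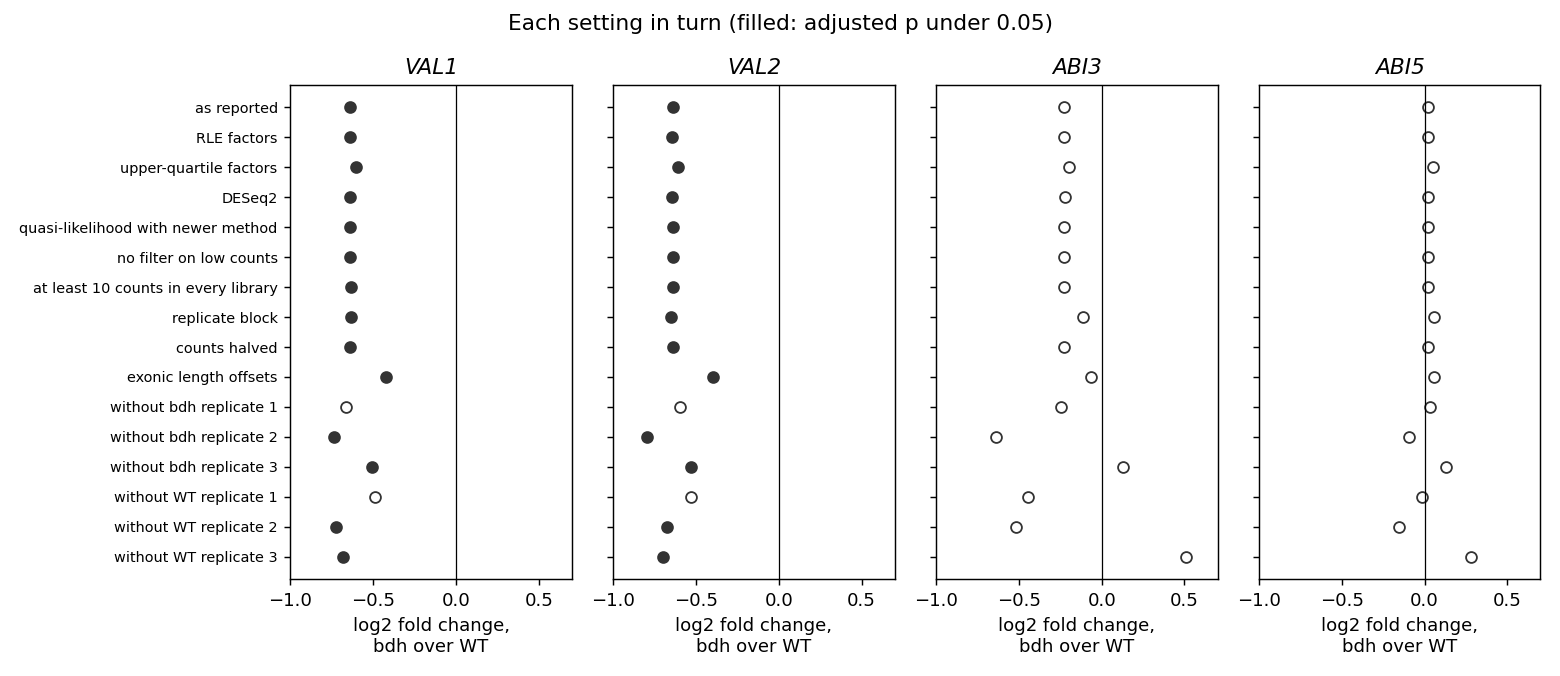
Log2 fold change of bdh over WT for VAL1, VAL2, ABI3 and ABI5 (x axis) under each setting (rows); filled points have an adjusted p under 0.05. VAL1 and VAL2 stay below 0 throughout, whereas ABI3 ranges from -0.64 without bdh replicate 2 to 0.51 without WT replicate 3.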

How the data were processed

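The authors deposited raw counts per gene for 6 libraries. STAR 2.7.10b, featureCounts (Subread 2.0.3), DESeq2 1.38 and the build TAIR10 are named in the submitters' processing notes, and strand setting and filters are not given in the sources used here. Per the labels, libraries were strand-specific. The authors also deposited a comparison with a mean normalized signal, a log2 fold change, its standard error, a p-value and an adjusted p-value, per the file headers. Of the 9 regulators 7 are in it.

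Counts were compared here with edgeR 4.0.16 in R 4.3.3: filterByExpr, TMM factors, glmQLFit and glmQLFTest without covariates, with Benjamini-Hochberg adjustment over all 20791 tested genes at 0.05. The SE is the absolute log2 fold change over the square root of F. Fitted values are bdh over WT. The filter left 5 of the 9 regulators. The members and lists were chosen with earlier results of these data known. Named were all members, VAL3, L1L, the DOG1-like genes and, per list, at most 4 genes past the threshold by size. Patterns most like a called member were ranked by Pearson correlation of log2 CPM (prior count 2) where the average log2 CPM was 1 or more.

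Exonic lengths, overlaps and sequences came from RefSeq's TAIR10.1, and the deposited tables carry no coordinates. No regulator had a copy elsewhere of at least 100 bases at 95% identity, apart from the overlap of VAL2 with AT4G08635. The results were recomputed with upper-quartile or RLE factors, with DESeq2 1.42.0, the newer quasi-likelihood method, no filter, at least 10 counts in every library, a replicate block, halved counts, offsets for exonic length (a spline with 4 degrees of freedom) and each library left out. Libraries of a group differed by more than sampling noise (chi-square per degree of freedom 15.8 or more). On simulated counts with 200 changed genes among 20649, 87.0% were recovered, and 4 of 178 calls were false. The changed genes were all well counted, and far fewer than the 23.5% called in the data. The simulation held no excess of even counts, no outlying library and no length trend. Its rates may therefore not carry over to these libraries or to low counts.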

Additional observations from a re-analysis of the deposited data

How the results depend on the processing

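The 15 alternatives left VAL1 and VAL2 lower in bdh throughout. Leaving out 1 library gave 1811 to 5558 genes past the threshold (4882 with all), 0 to 2 of the 9 regulators (2 with all) and 6 to 20 genes of the related lists (22 with all). It put the log2 fold change of VAL1 between -0.74 and -0.49 and that of VAL2 between -0.80 and -0.53. The fits without bdh replicate 1 and without WT replicate 1 were those that called 0 regulators, and fewer libraries enter each such fit. With the replicate block, 2090 genes and 14 genes of the related lists were past the threshold, and VAL1 (adjusted p 0.0393) and VAL2 (0.0383) stayed past it. The numbers are not shown to pair libraries: the deviations of same-numbered bdh and WT libraries correlated at 0.04, -0.54 and -0.29 for replicates 1, 2 and 3. Without WT replicate 3, 2682 genes and 14 of the related lists were past the threshold. Without bdh replicate 1 these were 1811 and 6, and without WT replicate 1 they were 2373 and 15. The root hair markers turned round without WT replicate 2, from 3 of 5 below 0 with all libraries to 0 of 5, with 3 past the threshold as higher. In that fit 2842 of all 21088 tested genes were past it as higher. Another scaling moved the median log2 fold change of all genes to 0.03 at most (upper-quartile factors). The depth, 40876788 to 44982000 counts per library, leaves FUS3, LEC1, LEC2, ABI4 and DOG1 near or under the limit of a few counts.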
